A study of Sus scrofa with 18 samples.

Results

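Myelin is the membrane that oligodendrocytes wrap around axons in the brain and spinal cord. Its sheath is held together by a small set of structural proteins, which mature oligodendrocytes make in large amounts once they reach an axon. In the mammalian brain these genes are known to come on late, after the precursor cells have spread, and their transcripts serve as markers of myelinating cells. The genes described here are MBP, CNP, CLDN11, MAG, MOG, MAL, ERMN, OPALIN and MOBP. They were taken by an exact match of the gene name in the deposited table of reads per gene. The table named 8 of these 9 genes among 31908 genes, and it held no gene named MOBP.

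The libraries came from whole brains of pig fetuses from Landrace x Large White gilts bred to LR-M6 boars by artificial insemination, with gestation day (GD) 1 as the day of insemination. Brains were taken at GD45, GD60 and GD90 from 3 female and 3 male fetuses each, which gives 18 libraries of mRNA from untreated animals. The fetus is the replicate, but at each gestation day the fetuses fell into litters that held 1 female and 1 male of the set, read here from a shared litter size. Neuron markers summed to between 6610 and 10200 CPM (counts scaled to the total count of each library) in all 18 libraries, which fits brain tissue. The libraries held 15118843 to 19729783 counts on genes (median 16413097). Male GD45 replicate 17 stood apart in its scaling: its effective library size was 0.8487 of its total, against 0.9431 to 1.072 in the other 17 libraries. The counts of members and of members' exons called below were also made without it. Counts of the other gene lists and of genes by correlation were made with all 18 libraries only.

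Of the members, MBP lies on chromosome 1 of Sscrofa11.1 (chr1:147568673-147685288, forward strand) and its 2 exons with most counts moved unequally. The gene table joins an upstream start to a downstream one. The single MBP transcript of RefSeq begins 80843 bases after the first start of the deposited annotation, at position 147649516. Past that position, 3 exons of the deposited exon table end at the same place, 147649730. A longer exon of 4445 bases begins before the RefSeq start, at 147649295, and runs through that same boundary. The 30 bases around the boundary (chr1:147649716-147649745, forward strand) are shown because the exon counts given further on split at this place, with the first 2 bases of the intron in capitals. The second line is a 78-base exon of the deposited annotation (chr1:147656766-147656843, forward strand), which had counts in the GD90 libraries and is not an exon of the RefSeq transcript.
MBP exon boundary: cggggctcgggcaagGTgagctctgaggaa
MBP 78-base exon: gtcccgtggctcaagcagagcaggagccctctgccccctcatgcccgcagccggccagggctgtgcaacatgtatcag

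The 250 bases before the RefSeq start are shown for MAG (chr6:44793947-44794196, forward strand) and ERMN (chr15:64293271-64293520, reverse strand), the member with the largest ratio of median CPM from GD60 to GD90 among those above the counting floor and a member that was at or under that floor at GD60. Capitals mark letters searched on both strands as short forms of sites bound by regulators of oligodendrocytes: CTGGNAC for MYRF, and ACAAAG or ACAATG for SOX factors. The MYRF letters are in 1 of the 9 members (MAG) and in 15% of the 19556 RefSeq windows of this length. The SOX letters are in 5 of 9 (CLDN11, ERMN, MAG, MBP and MOBP) and in 18.4% of all windows. The letters CAGCTG, an E-box that reads the same on both strands and is not marked here because neither window holds it, are in 5 of 9 members and in 13.6% of windows. The MOBP window holds 9 matches of the SOX letters. Such matches describe the letters only, and OPALIN has none of the 3 motifs in its window.
MAG upstream: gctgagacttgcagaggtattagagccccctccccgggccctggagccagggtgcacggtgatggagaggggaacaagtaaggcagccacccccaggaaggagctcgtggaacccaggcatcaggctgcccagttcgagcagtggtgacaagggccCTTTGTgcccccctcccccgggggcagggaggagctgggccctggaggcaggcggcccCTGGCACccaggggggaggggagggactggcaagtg
ERMN upstream: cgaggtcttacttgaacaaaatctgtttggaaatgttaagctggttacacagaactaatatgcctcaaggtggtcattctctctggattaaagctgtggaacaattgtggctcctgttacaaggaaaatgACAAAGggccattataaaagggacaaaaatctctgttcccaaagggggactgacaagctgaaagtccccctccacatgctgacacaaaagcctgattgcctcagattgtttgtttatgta

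From GD60 to GD90, all 8 named members rose in both sexes. The ratio of median CPM ran from 2.95 for CLDN11 to 75.9 for MAG, with ERMN too low at GD60 for a ratio, and no member's GD90 libraries overlapped its GD60 libraries. The share of all genes without such an overlap was not computed. Counts were compared with edgeR's quasi-likelihood test over 16325 genes, with Benjamini-Hochberg adjustment and a threshold of 0.05. Among all genes tested, 13.7% were called higher at GD90 in females and 18.5% in males. MOG, ERMN and OPALIN reached the filter on low counts only through their GD90 libraries, so being tested already meant that they were higher there. The count of 8 and the adjusted p-values of these members for this comparison are thus descriptions. The median log2 fold change of the members was 5.27 in females and 5.65 in males, against -0.022 and 0.007 over all genes tested. Because whole brains were sequenced, more cells of a type and more RNA per cell cannot be told apart. The plot of CPM by library shows the same step in every panel.

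**Figure D1:**
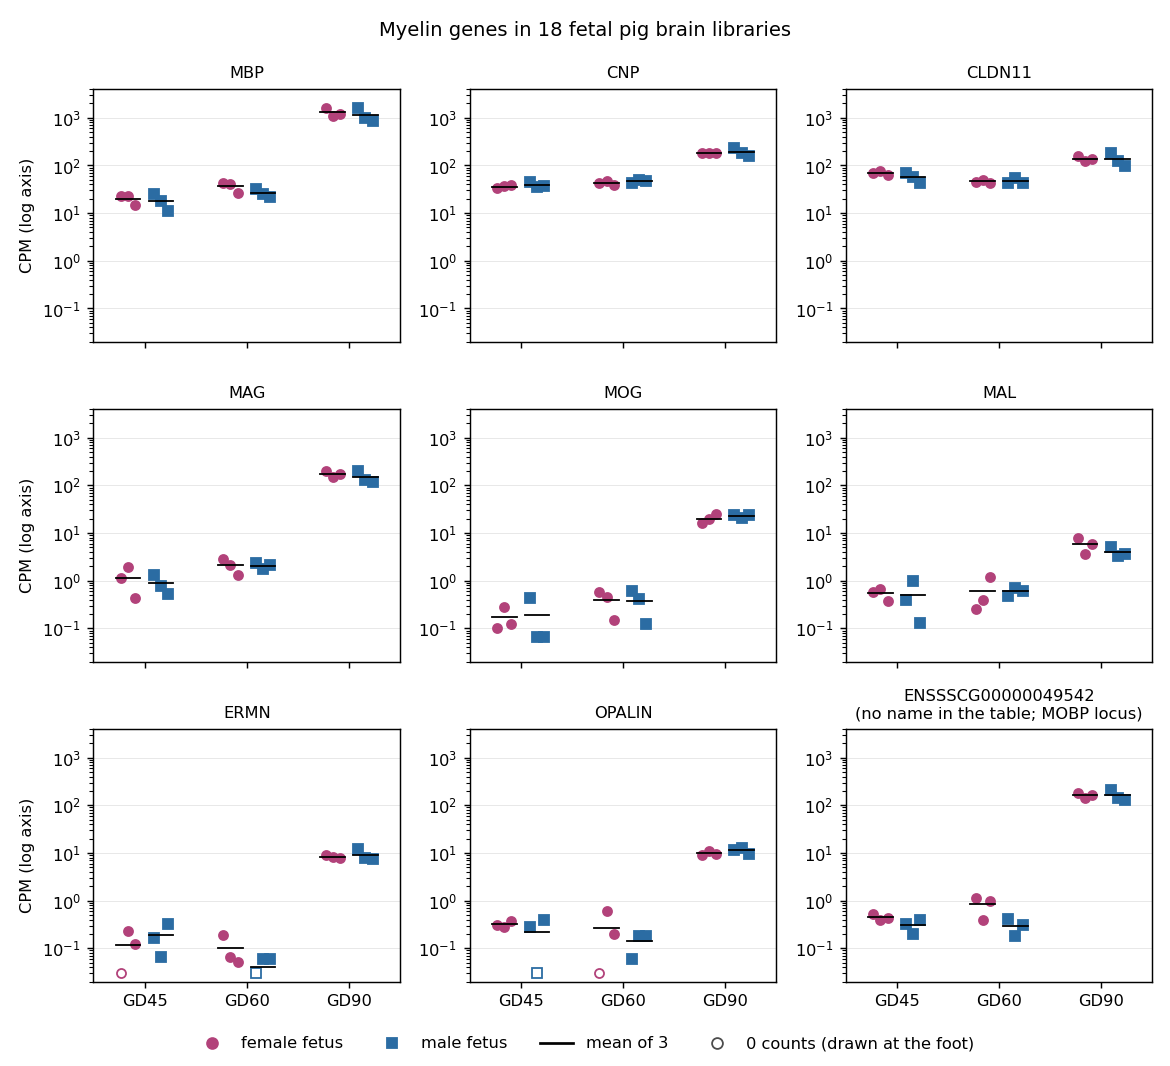
CPM on a log axis for the 8 named myelin genes and for the unnamed gene at the MOBP locus, by gestation day. Each point is 1 library (circles female, squares male), the black line is the mean of 3 libraries, and open symbols at the foot are libraries with 0 counts. In every panel the 6 GD90 libraries lie above all libraries of GD45 and GD60, while GD45 and GD60 overlap.

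Among the proteins of compact myelin, MBP, the basic protein that zips the inner faces of the membrane together, had the highest CPM. At GD60 it stood at 42.3, 41.8 and 26.6 CPM in the females and 32, 25.1 and 22 CPM in the males. At GD90 it reached 1590, 1080 and 1220 CPM in the females and 1570, 980 and 840 CPM in the males. The lowest GD90 library was thus 19.8 times the highest GD60 library. The log2 fold change was 5.23 ± 0.31 (SE) in females (edgeR adjusted p = 1.11e-08) and 5.41 ± 0.31 in males (adjusted p = 9.15e-09). MBP alone made up a median of 68.7% of the summed CPM of the 8 members at GD90, after 16.3% at GD45 and 25.1% at GD60.

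MAL (chr3:46181555-46242047, reverse strand), a proteolipid of membrane rafts that is involved in sorting proteins to myelin, stayed low. Its libraries ranged from 0.132 to 0.979 CPM at GD45, from 0.252 to 1.17 at GD60 and from 3.32 to 7.88 at GD90. The log2 fold change from GD60 to GD90 was 3.27 ± 0.53 in females (edgeR adjusted p = 0.000241) and 2.70 ± 0.53 in males (adjusted p = 0.00113). Without female GD60 replicate 15, which had 23 counts of MAL, the value in females was 4.26. These were the highest adjusted p-values among the members in this comparison. MAL also had the widest spread at GD90, where its highest library was 2.37 times its lowest.

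CLDN11 (chr13:109075601-109091308, forward strand), a claudin that forms the tight junctions between myelin wraps and is also made by barrier cells of the meninges, was already high at GD45 and GD60. It ranged from 42.4 to 77.7 CPM at GD45 with a median of 65.7, from 42 to 54.4 at GD60 with a median of 44.7, and from 99.1 to 182 at GD90 with a median of 132. The 2 earlier days overlapped and GD90 lay apart. CLDN11 had the smallest rise of the members, by 1.68 ± 0.19 on the log2 scale in females (edgeR adjusted p = 1.09e-05) and 1.51 ± 0.19 in males (adjusted p = 2.73e-05). Its median share of the members' summed CPM was 52.1% at GD45, 36.2% at GD60 and 7.96% at GD90. Summed CPM of 4 meningeal and fibroblast markers ranged from 483 to 1080 at GD45, 709 to 967 at GD60 and 894 to 1180 at GD90, and their part in the early CLDN11 level was not tested.

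CNP (chr12:20758081-20776868, reverse strand), a phosphodiesterase that keeps cytoplasmic channels in the sheath open and is made by oligodendrocytes before they myelinate, was the other member with a high early level. Its libraries ranged from 33.6 to 44.3 CPM at GD45, from 39.8 to 49.9 at GD60 and from 158 to 235 at GD90. The 3 female GD90 libraries were close together (184 ± 1.61 CPM, SD, n = 3), whereas the males ranged from 158 to 235 CPM. The log2 fold change was 2.17 ± 0.15 in females (edgeR adjusted p = 4.3e-08) and 2.02 ± 0.15 in males (adjusted p = 1.14e-07). Exons of CNP overlap those of DNAJC7 on the opposite strand, at 86 to 127 CPM in the libraries, and the counting options for strand are not given in the sources used here, so the reads of the overlap are uncertain.

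Of the members on the surface of the sheath, MAG (chr6:44794204-44809929, forward strand), a lectin of the inner layer that faces the axon, had the largest fitted change among the members well above the counting floor. At GD60 it stood at 2.83, 2.11 and 1.32 CPM in females and 2.35, 1.72 and 2.11 CPM in males. At GD90 it stood at 202, 148 and 173 CPM in females and 205, 129 and 116 CPM in males. The lowest GD90 library was 40.8 times the highest GD60 library. The log2 fold change was 6.49 ± 0.37 in females (89.7-fold, edgeR adjusted p = 9.96e-09) and 6.16 ± 0.37 in males (71.6-fold, adjusted p = 1.23e-08).

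MOG (chr7:22595508-22612761, forward strand), an immunoglobulin-like protein of the outermost layer and a marker of mature oligodendrocytes, had 1 to 10 counts in the 12 libraries of GD45 and GD60. At GD90 it had 281 to 412 counts, or 15.9 to 24.5 CPM with a median of 22.3. Its log2 fold change was 5.78 ± 0.44 in females and 5.88 ± 0.44 in males (edgeR adjusted p = 1.61e-07 and 1.56e-07). MOG was tested only through its GD90 libraries, so these p-values are descriptions. Female GD90 replicate 2, the highest library for MBP, was the lowest for MOG. Exons of MOG overlap those of ZFP57 on the opposite strand, which had 0.261 to 4.5 CPM.

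ERMN and OPALIN were near or below what these libraries could count before GD90. ERMN (chr15:64286052-64293155, reverse strand) encodes ermin, a cytoskeletal protein of late oligodendrocytes. It had 3, 1 and 1 counts in the GD60 females and 0, 1 and 1 in the GD60 males, where a library with 0 counts still allows 3. At GD90 it had 156, 126 and 120 counts in females and 201, 127 and 115 in males, or 7.61 to 11.9 CPM. By the fitted values ERMN was higher at GD90 (edgeR adjusted p = 7.54e-07 in females and 3.98e-07 in males). ERMN was tested only through its GD90 libraries, so these p-values are descriptions. Set against 3 counts in each GD60 library, ERMN was 45.9-fold higher in females and 50.7-fold higher in males, ratios that were not tested. A library that already holds 3 counts allows more than 3, so such ratios are not strict lower bounds. Intervals given further on take in counting error alone, because the reads carry no molecular identifiers.

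OPALIN (chr14:107793678-107809499, reverse strand) encodes a transmembrane glycoprotein found in oligodendrocytes. It had 0 to 6 counts at GD45, 0 to 9 at GD60 and 146 to 209 at GD90, which is 9.25 to 12.9 CPM. In females the log2 fold change was 5.30 ± 0.58 (edgeR adjusted p = 6.19e-06), but 4.74 without female GD60 replicate 3 and 6.44 without female GD60 replicate 5. In males, whose GD60 libraries had 1, 3 and 3 counts, OPALIN was higher at GD90 (edgeR adjusted p = 2.9e-06). Set against 3 counts in each GD60 library the ratio was 63.4, which is not a strict lower bound. OPALIN was tested only through its GD90 libraries, so its adjusted p-values in both sexes are descriptions. With ERMN set to its ratio against 3 counts, and OPALIN too for the males, the members' median log2 fold change was 5.27 for females and 5.54 for males. OPALIN had the narrowest spread at GD90, the highest library being 1.39 times the lowest.

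No gene of the table is named MOBP, the basic protein of oligodendrocytes that lies beside MBP in compact myelin. An unnamed gene, ENSSSCG00000049542 (chr13:24138165-24186837, forward strand), covers the RefSeq MOBP locus (chr13:24138078-24186838). Of its 15 exons, 13 overlap RefSeq MOBP exons and 5 share both ends with one, and its exons hold 92.8% of the 10518 exonic bases of RefSeq MOBP. It is given here by its identifier and is not counted among the 8. It had 3 to 10 counts at GD45, 3 to 19 at GD60 and 1960 to 3554 at GD90. At GD90 its CPM was 185, 143 and 163 in females and 211, 144 and 130 in males. The log2 fold change from GD60 was 7.67 ± 0.30 in females and 9.02 ± 0.34 in males (edgeR adjusted p = 1.39e-10 and 6.33e-11). It too reached the filter on low counts only through GD90, so these adjusted p-values are descriptions. It overlaps exons of 2 other unnamed genes on the opposite strand, which reached at most 2.71 CPM.

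Between GD45 and GD60 none of the 8 members passed the threshold in either sex, where 7.22% of all genes tested were called in females and 5.61% in males. At an unadjusted p under 0.05 there were 2 members in females and 2 in males, where 21.4% and 18.1% of all genes passed that mark. MBP had 22.5, 23.1 and 14.9 CPM in GD45 females and 24.6, 18.1 and 11.2 CPM in GD45 males, and overlapped GD60. Its log2 fold change was 0.87 ± 0.27 in females (edgeR adjusted p = 0.0583) and 0.54 ± 0.27 in males (adjusted p = 0.303). CLDN11 had -0.57 ± 0.19 in females (adjusted p = 0.0828) and MAG had 1.19 ± 0.43 in males (adjusted p = 0.136). The libraries of GD45 and GD60 overlapped for all 8 members, and the share of all genes with such an overlap was not computed.

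The counts of 0 depended on the tool. DESeq2 called MBP and CLDN11 in females (adjusted p = 0.0185 and 0.0466) and MAG in males (adjusted p = 0.04). The likelihood ratio test of edgeR called MBP in females and MAG in males. Without male GD45 replicate 17, a library of the other sex that enters the shared estimate of the spread, MBP and CLDN11 passed in females (adjusted p = 0.0291 and 0.0418). The same members passed without male GD90 replicate 1 (adjusted p = 0.0408 and 0.0377), and MBP alone passed without female GD60 replicate 15 (adjusted p = 0.0385).

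**Figure D2:**
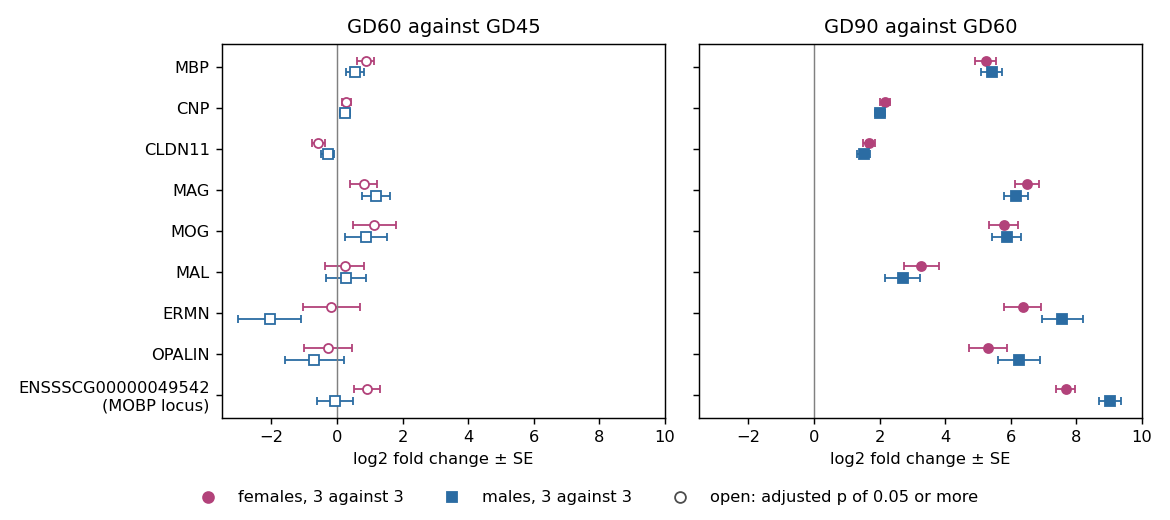
Fitted log2 fold changes with their standard errors (horizontal bars) for GD60 against GD45 on the left and GD90 against GD60 on the right, in females (circles) and males (squares), 3 libraries against 3. Open symbols did not pass an adjusted p of 0.05: all are open on the left and all are filled on the right. The fitted values of ERMN, and of OPALIN for the males, rest on GD60 libraries with at most 3 counts and are not sizes of the change.

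Males and females were compared at each gestation day, since fetal sex was a main question of the study. None of the 8 members differed between the sexes at GD45, GD60 or GD90 by edgeR, where 0.0919%, 0.098% and 0.098% of all genes were called, and none had an unadjusted p under 0.05, a mark that 2.59%, 4.8% and 13.6% of all genes passed. DESeq2 and the likelihood ratio test also called none. At GD90 the difference, male minus female, was 0.00 ± 0.14 on the log2 scale for CNP, -0.26 ± 0.26 for MBP and -0.28 ± 0.28 for MAG. MAL had the largest difference at GD90, -0.60 ± 0.46 (edgeR adjusted p = 0.497). For low members the intervals were wide at the early days, with 0.76 ± 0.78 for ERMN at GD45 and -1.12 ± 1.06 at GD60.

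The change with gestation day was also compared between the sexes. No member passed the interaction test for either period, and neither did any of the 16325 genes (0%), nor did a member have an unadjusted p under 0.05, as 2.04% of all genes had for the earlier period and 19.8% for the later. For the later period the count over all genes rose to 2205 without male GD45 replicate 17, to 268 with DESeq2 and to 129 with the likelihood ratio test, still with no member called. From GD60 to GD90 the members' interaction ran from -0.56 ± 0.75 (MAL) to 1.21 ± 1.12 (ERMN) on the log2 scale. The unnamed gene at the MOBP locus had the lowest unadjusted p, with an interaction of 1.35 ± 0.49 (edgeR adjusted p = 0.206). Its GD60 females had 18, 6 and 19 counts and its GD60 males 7, 3 and 5.

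The order of the members by level was read per length, as FPKM, which is the CPM of a gene divided by its length in kilobases as given in the table. At GD45 CLDN11 (median 21.9 FPKM) and CNP (15.7) led, ahead of MBP (2.08), and the other 5 members had medians of at most 0.364. At GD60 CNP (19.3) and CLDN11 (14.9) led again, with MBP at 3.01. At GD90 the order was MBP (118), CNP (78.1), MAG (60.5), CLDN11 (44), MOG (3.75), ERMN (2.66), MAL (1.68) and OPALIN (1.32). Neighbours in this order overlapped at GD90, such as MBP (86.2 to 163) with CNP (67 to 99.8), CNP with MAG (43.6 to 77.3), and MAG with CLDN11 (33.1 to 60.8). The low members MOG (2.68 to 4.12), ERMN (2.54 to 3.98), MAL (1.28 to 3.05) and OPALIN (1.18 to 1.64) each overlapped the next. CLDN11 and MOG did not overlap. With the summed length of the exons in the exon table in place of the gene length, CNP and MAG changed places and so did MOG and ERMN.

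The 6 GD90 libraries did not differ in the same way for every member. The ratio of the highest to the lowest library ran from 1.39 (OPALIN) to 2.37 (MAL). Male GD90 replicate 1 was the highest library for 4 of the 8 members and lay above the mean of the 6 libraries for all 8, at up to 137% of it. Male GD90 replicate 10 was the lowest for 5 of 8, at 69.2% to 113%. The 2 fetuses of the GD90 litter of 10, female replicate 2 and male replicate 1, were the 2 highest libraries for MBP, CLDN11, MAG and ERMN. In the same pair, female replicate 2 was the lowest library for MOG (73.9%) and OPALIN (86.8%) and the highest for MAL (161%).

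The earlier days held a pair at the low end. At GD45 the litter of 8, male replicate 17 and female replicate 18, gave the 2 lowest libraries for MBP, MAL and MAG, with MAG at 0.527 and 0.432 CPM against 0.783 to 1.93 in the other 4 libraries. Their brains were the lightest, at 0.7135 and 0.6653 in the unit of the labels against 1.55 to 1.86 for the other GD45 brains. At GD90 the litter of 10, with high levels of MBP, CLDN11, MAG and ERMN, also had the lightest brains of its day, at 17.58 and 18.52 against 18.93 to 20.489. At GD45 OPALIN had its highest CPM in the litter of 8 (0.396 and 0.37), on 6 counts each. The light brains thus went with low levels at GD45 and with high levels at GD90. In the other litters both fetuses stood at the same end for at most 2 members. Such pairs also arise by chance, and how often they do over all genes was not computed. Whether litter or brain weight had a part in these levels was not tested.

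**Figure D3:**
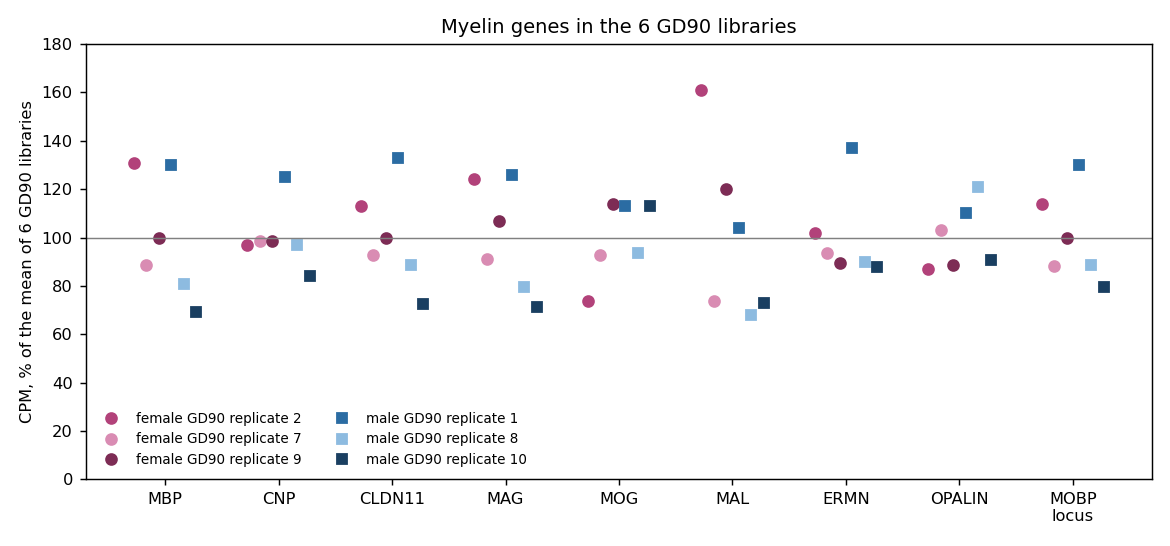
CPM of each myelin gene in the 6 GD90 libraries, as a percentage of their mean for that gene (horizontal line at 100%), with females as circles and males as squares. Male replicate 1 lies above the line for all genes shown and male replicate 10 lies lowest for MBP, CNP, CLDN11, MAG and ERMN, while MOG and OPALIN follow another order.

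The exon table gave a view of the parts of each gene. It held 114 exons of the 8 members, of which 27 had enough counts to be tested. Of these 27, 20 had fewer than 10 counts in each library before GD90 and 5 had 0 in each GD60 library, so that for most of them being tested already meant being higher at GD90. From GD60 to GD90, 26 of the 27 were called higher in females and 26 in males, against 2.31% and 4.69% of the 80134 exons tested that were called higher. The exceptions were a 3960-base exon of OPALIN in females (adjusted p = 0.188, edgeR) and a 4705-base exon of MOG in males (adjusted p = 0.123). From GD45 to GD60 none of the 27 was called in either sex, among 0.167% and 0.0262% of all exons in either direction. Exons that share positions lose reads in this table: 34.2% of the reads counted on MBP and 1.23% of those on CNP were found again on exons, but 97% for ERMN, so exon values describe parts of the genes only.

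In MBP, the 2 exons with most counts did not move together. The 4445-base exon that runs through the boundary shown above had 5.93 to 12.9 CPM at GD45, 10 to 17.5 at GD60 and 26.5 to 32.1 at GD90. The 1335-base last exon at the 3′ end (chr1:147683954-147685288) had 1.42 to 3.59 CPM at GD45, 3.19 to 7.62 at GD60 and 252 to 472 at GD90. By CPM the long exon was thus the higher of this pair in all 12 libraries of GD45 and GD60. It was the lower in all 6 of GD90. CPM is not divided by length here, and both exons share positions with shorter ones, where reads are lost. The order of the pair is thus one of counts and not of transcripts. For the long exon the log2 fold change from GD60 to GD90 was 1.00 ± 0.24 in females (edgeR adjusted p = 0.0227) and 0.94 ± 0.24 in males (adjusted p = 0.022). For the 3′ exon it was 6.28 ± 0.41 in females (adjusted p = 1.84e-08) and 6.20 ± 0.41 in males (adjusted p = 2.4e-08).

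Of the counts on both exons, the 3′ exon held 13.3% to 21.8% at GD45, 19.9% to 31.4% at GD60 and 88.7% to 94.7% at GD90. The exact 95% binomial interval was 8.62% to 19.3% in the lowest GD45 library and 87.7% to 89.6% in the lowest GD90 library. In the test of exon use, which sets an exon against the rest of its gene, the long exon fell by 2.40 on the log2 scale in females (edgeR adjusted p = 7.48e-08) and by 2.25 in males (adjusted p = 5.17e-07). This test called 0.043% of 76800 exons in females and 0.069% in males. The 3′ exon rose by 1.26 in females (adjusted p = 0.0158) and 1.39 in males (adjusted p = 0.00804). The call of the 3′ exon was lost in 5 of 19 alternatives in females and 4 of 19 in males, all of them with 1 library left out, with adjusted p-values up to 0.241, whereas that of the long exon was kept in all 19 in each sex.

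The long exon begins before the RefSeq start and was read here as part of an upstream-start transcript. Such a form is known in the mouse as golli-MBP and is made in neurons and in cells of the immune system as well as in oligodendrocyte precursors. The upstream exons themselves gave little: the 11 exons before it had 5 counts in all 18 libraries together. Some of these 11 share positions with another exon and so lose reads in the counting, which limits what their low counts show. Most of the long exon, 4009 of its bases, lies past the boundary where the shorter exons end. Reads of MBP transcripts that keep the intron fall on the same bases, and the 2 sources cannot be told apart here. The 78-base exon had 0 or 1 counts at GD45, 0 at GD60 and 15 to 63 at GD90, and rose in both sexes (edgeR adjusted p = 0.000515 in females and 0.000678 in males). Some MBP isoforms are known to include an alternatively spliced small exon, and their share is known to be larger early in myelination, but whether the 78-base exon is that one was not tested. A 1351-base exon (chr1:147678446-147679796) had at most 2 counts in a library before GD90 and 16 to 118 at GD90 (adjusted p = 0.000181 and 2.05e-05). Both the 78-base and the 1351-base exon were tested only because of their GD90 counts. Being tested thus already meant being higher there, and their adjusted p-values are descriptions.

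**Figure D4:**
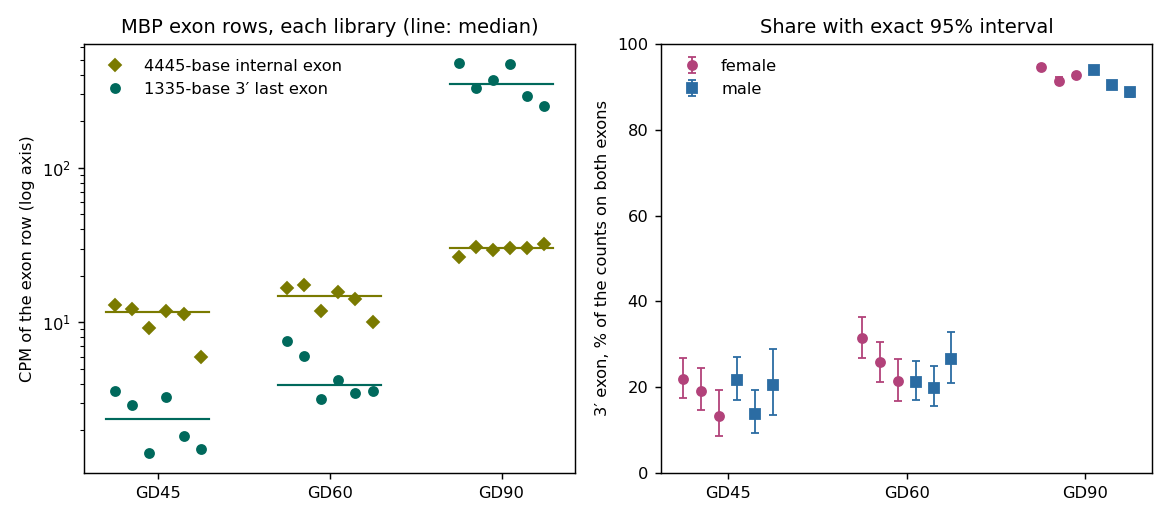
MBP exons in each library by gestation day. On the left, CPM on a log axis of the 4445-base internal exon (diamonds) and the 1335-base 3′ last exon (circles), with lines at the medians. On the right, the 3′ exon's share of the counts on both exons in percent, with exact 95% binomial intervals, for females (circles) and males (squares). By CPM, which is not divided by exon length, the internal exon is the higher at GD45 and GD60. The 3′ exon is the higher at GD90, with a share of at least 88.7%.

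Other genes of myelin were described from a list of 24 (galactolipid enzymes, gap junction proteins, tetraspanins and further proteins of the sheath), of which 23 were tested and NINJ2 was not in the table. From GD60 to GD90, 18 of 23 rose in females and 19 in males and none fell, with median log2 fold changes of 1.87 and 1.74. Among all genes tested, 13.7% were called higher in females and 18.5% in males. Among the largest changes of this list was that of TMEM125, a transmembrane protein found in oligodendrocytes (median CPM 0.19 at GD60 and 10.2 at GD90). TMEM125 had at most 0.461 CPM in a library before GD90, so it too was tested only through GD90. Another of the largest changes was that of FA2H, the enzyme that hydroxylates fatty acids of myelin lipids (0.626 and 10.1). By the mean of both sexes, the smallest were those of TSPAN2, a tetraspanin (34.7 and 39.6 CPM), MYO1D, a myosin (10.7 and 12.4, with log2 fold changes of -0.60 in females and 0.85 in males), and ANLN, the actin-binding protein anillin (5.89 and 5.16), none of which passed the test in either sex (adjusted p from 0.0918 to 0.684, edgeR). From GD45 to GD60, 2 of the 23 rose in females and 1 in males, where 7.22% and 5.61% of all genes tested were called in either direction.

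From GD60 to GD90, 13.7% of all genes tested were called higher in females and 18.5% in males. Of 12 tested regulators and precursor markers of the oligodendrocyte lineage, 10 rose from GD60 to GD90 in females and 10 in males, and 1 fell in females. Their median log2 fold changes were 1.04 and 0.96. Their summed CPM ranged from 235 to 433 at GD45, 405 to 522 at GD60 and 755 to 984 at GD90, so the 3 days were nearer to each other than for the members, which summed to 91.8 to 142, 113 to 142 and 1260 to 2250. MYRF was not found by name in the table. From GD45 to GD60, 4 of the 12 rose in females and 3 in males, where 7.22% and 5.61% of all genes tested were called in either direction. No member passed edgeR's quasi-likelihood test for that period, though DESeq2 called MBP and CLDN11 in females and MAG in males.

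Markers of other cells were set beside the members for GD90 against GD60. Over all genes tested, 13.7% were called higher in females and 18.5% in males. Of 7 tested genes of Schwann cells and peripheral myelin, which could come with nerve roots, 1 rose in females, and 2 rose and 1 fell in males. Their summed CPM ranged from 59.5 to 102 at GD45, 68.6 to 105 at GD60 and 77.1 to 91.6 at GD90. Some markers of other cells of the brain also rose. Of 7 astrocyte markers 4 rose in females and 6 in males, and their summed CPM went from 436 to 618 at GD60 to 1630 to 2180 at GD90. Of 8 neuron markers 6 rose in each sex, with 1 lower in males, and their sums were 7580 to 9970 at GD60 and 8500 to 10200 at GD90. Of 6 microglia markers 3 rose in each sex, from sums of 71.6 to 96.8 to 124 to 165 CPM. Of 5 endothelial markers 2 rose in each sex. Of 4 erythroid markers none rose, 1 fell in females and 2 fell in males. Of 4 meningeal and fibroblast markers none rose in females and 1 in males, and 1 fell in each sex. What part other cells had in the members' rise was not tested.

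**Figure D5:**
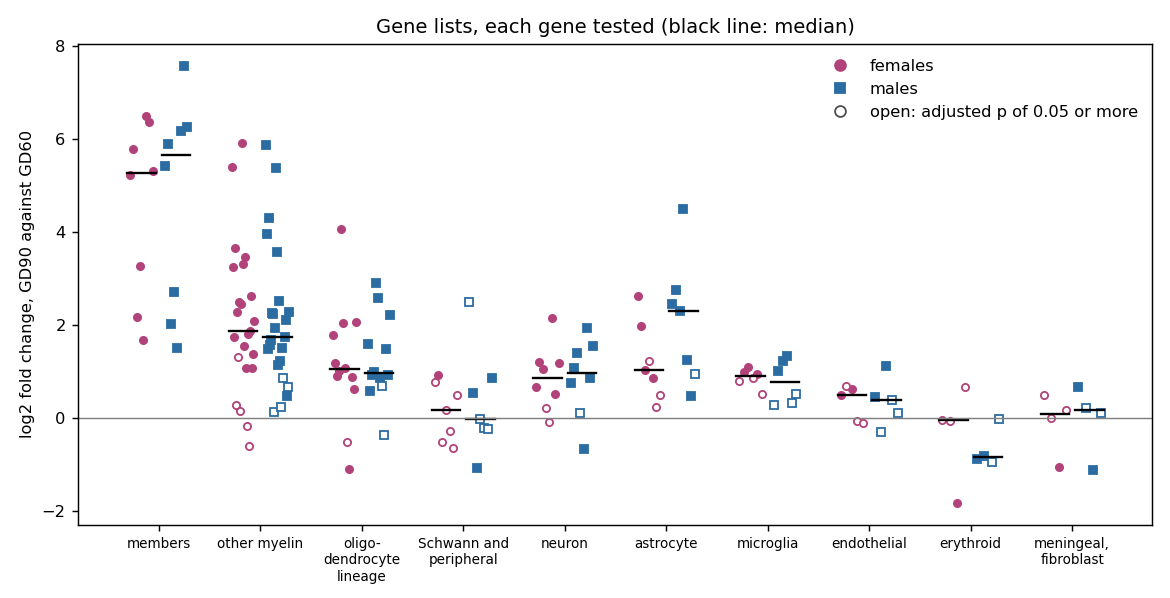
Fitted log2 fold changes from GD60 to GD90 for each tested gene of the members and of 9 other lists, with females as circles, males as squares, open symbols for an adjusted p of 0.05 or more and black lines at the medians. The members' medians (5.27 and 5.65) stand above those of the other lists, whose highest is 2.29 for astrocyte markers in males.

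The genes whose pattern over the 18 libraries was most like that of the members were found by Pearson's r between a gene's log2 CPM and the mean scaled log2 CPM of the 8 members, among 13612 genes with a symbol. Among the 10 most alike were UGT8 (r = 0.986), ARHGEF3 (0.982), PLLP (0.982), TMEM125 (0.981), VSTM2A (0.981), GLUL (0.98), GOT1 (0.98), NRSN1 (0.98) and SH3GL2 (0.979). The unnamed gene at the MOBP locus had r = 0.987 on the same scale. Against the mean of the other 7, each member's own r ran from 0.919 (MAL) to 0.988 (MBP). These values rest mainly on the step to GD90, which the libraries share, and 133 genes had an r of at least 0.95. By Spearman's rho, 0 of the 10 were among the 10 most alike.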

How the data were processed

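Total RNA of whole fetal brains was enriched for mRNA and sequenced in 150-base read pairs. The authors trimmed the reads with Trimmomatic after FastQC, mapped them with HISAT2 (Sscrofa11.1), and featureCounts assigned them to Ensembl features. The authors deposited raw counts per gene and per exon, without normalization. Options for strand, multiple matches and shared reads are not given in the sources used here. A transcript table was not used.

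The 22 count columns give 18 libraries, because 4 had 2 runs, which were summed. CPM was computed from the gene counts of each library. Fits used edgeR 4.0.16 in R 4.3.3 (filterByExpr, TMM, 1 model of 6 groups of sex and gestation day), and exon use was tested with diffSpliceDGE. Standard errors were taken from the fold change and its F statistic. Results were recomputed by DESeq2 1.42.0, the likelihood ratio test of edgeR, limma 3.58.1 (voom) with and without litter, other filters and scalings, and libraries left out. The fit without litter in limma and the alternatives for exon use were added after seeing the data. On simulated counts for GD90 against GD60 in females, at a log2 size of 2, 84.5% of changed genes among 16325 were recovered with 8 false calls, and 78% of changed exons among 80134 with 6. The test of exon use recovered 12.5% of changed exons, with 5 false calls outside the changed genes.

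Sequences and the MOBP locus are from RefSeq on Sscrofa11.1 (NCBI annotation release 106), read with pysam 0.24.0. Members and lists were chosen with earlier results of these data known. Genes outside the members were named by rule: the 3 largest and 3 smallest changes of the myelin list, and the 10 highest r. A result that this rule would name is not reported here.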

Additional observations from a re-analysis of the deposited data

Results flagged for a closer look

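Over the 6 libraries of each gestation day, the highest or lowest CPM of 9 genes was checked with Dixon's 95% critical value, which chance alone passes in about 1 of 20 groups. Of 27 groups of 6 libraries, 5 passed. At GD90, male replicate 1 was far above the other libraries for CNP (235 CPM) and for ERMN (11.9 CPM). The other 3 rest on few counts: ERMN at 0.189 CPM in female GD60 replicate 3, OPALIN at 0.595 CPM in female GD60 replicate 5, and OPALIN at 0 CPM in male GD45 replicate 14. No interaction of sex and gestation day passed the threshold.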

How the results depend on the processing

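All 8 members were called higher at GD90 than at GD60 in each sex under every alternative run, with the lowest log2 fold change at 1.58 in females and 1.23 in males (CLDN11) and adjusted p-values up to 0.00451 and 0.00665. MOG, ERMN and OPALIN reached the filter on low counts only through GD90, so this count is a description. In the main fit 13.7% of all genes tested were called higher in females and 18.5% in males. No alternative called a member between the sexes or in an interaction. Between GD45 and GD60 in females, where edgeR's quasi-likelihood test called 0 members, the likelihood ratio test called 1, no filter on low counts 1, DESeq2 2, only the libraries compared 1, and leaving out both GD45 fetuses of the litter with the lightest brains 1. With 1 library left out the count ran from 0 to 2. In males the likelihood ratio test called 1 and DESeq2 1, and 0 were called with any library left out.

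Sign changes between GD45 and GD60 were seen in values that passed no threshold. With limma voom in females MAL turned to -0.02 and ERMN to 0.27, with and without the litter block. Without both lightest GD45 fetuses, MAL in males turned to -0.08 and the gene at the MOBP locus to 0.23. With 1 library left out, values in females ran from -0.86 to 0.75 for ERMN (with 0.03 and 0.15 between), from -0.77 to 0.60 for MAL and from -1.43 to 0.28 for OPALIN, and in males from -0.10 to 1.11 for MAL and from -0.34 to 0.21 for the gene at the MOBP locus (with 0.20). The cause was not tested.

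Counts over all genes moved more. From GD45 to GD60, 1178 genes were called in females and 916 in males, against 1806 and 1411 with DESeq2, 2326 and 1549 without male GD45 replicate 17, as few as 531 in females without female GD60 replicate 3 and 476 in males without male GD60 replicate 6, and 0 in males with only the libraries compared. At GD90, 16 genes differed between the sexes, against 42 with the likelihood ratio test, 52 with DESeq2 and 1062 with only the libraries compared. The later interaction went from 0 to 1145 with only the libraries compared.

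Exon calls from GD60 to GD90 ran from 22 to 27 of the members' exons in each sex with 1 library left out. With litter as a replicate block, 8, 8, 0 and 0 members were called in the late and early comparisons, and 0 in the sex comparisons, while over all genes the block took the sex calls from 15 to 9 at GD45, 16 to 9 at GD60 and 16 to 10 at GD90. Deviations of fetuses of the same litter correlated at -0.0932 to 0.424 over 9 litters, not over 0.1 in every litter. Summed exon length kept the rank of 5 of 9 genes, and levels in CPM moved by less than the spread between replicates under TMM scaling. Depth limited ERMN, OPALIN, MOG and MAL before GD90.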
